A study of Arabidopsis thaliana with 46 samples.

Results

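A set of 7 genes of the seed storage programme was followed across every array of a study of the Arabidopsis transcription factor WRKY1. They are ICL, which encodes isocitrate lyase, the oleosin-type genes OLEO3, AT3G01570 and AT2G25890, the oil body gene AT1G65090, and the storage-type genes PAP85 and AT4G36700. The genes were chosen by name with their values in these same arrays already known, over all 16 groups. Each gene has 1 annotated probe set, so they make up 7 of the 22810 probe sets of the table. Because the selection was based on values from every comparison, their levels and differences are given as a description and carry no test.

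Transcripts were measured in shoots of 14-day-old seedlings on 46 Affymetrix arrays, in 14 groups of 3 arrays and 2 groups of 2. The lines were SALK_016954, SALK_136009 and SALK_070989, each with a T-DNA insertion in WRKY1, and the wild type Col-0. The steady experiment held all 3 insertion lines and Col-0 on full medium. SALK_070989 and Col-0 were compared in 6 further conditions. In N-rich, seedlings raised on 1 mM KNO3 spent 2 h on 20 mM KNO3 and 20 mM NH4NO3, and in N-absent they spent 2 h on 20 mM KCl. In dark, plates were wrapped in foil from day 13, and in light they stayed under long days (16 h light, 8 h dark, 22 °C). Dark N-rich and dark N-absent made up the combined experiment, for which the labels give neither media nor hours of darkness. Light-grown plants were not part of that experiment, so effects of its darkness and of the experiment itself cannot be told apart. Col-0 had 2 arrays in each combined condition, because the third sample was lost at harvest. All plants shared sucrose-containing agar and the light cycle before treatment, but not the nitrogen supply. The N-rich and N-absent plants were raised on 1 mM KNO3 and the steady plants on full medium. For the combined experiment the labels do not give the supply. A single insertion line was used outside the steady experiment, and the labels do not say whether replicates are separate cultures. The p-values therefore cover only the spread among these arrays, which may be technical.

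Maturing Arabidopsis seeds store oil in oil bodies, droplets whose surface is coated with oleosins, and store protein as cupin-type globulins and albumins. After germination the oil is broken down by beta-oxidation in peroxisomes, and the glyoxylate cycle, in which isocitrate lyase and malate synthase act, turns the resulting acetyl units into precursors of sugar. These genes are known for high transcript levels in embryos or germinating seedlings and for low levels in green leaves.

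The authors deposited GCRMA values, taken here as log2, in which many probe sets without signal sit at or near the lowest value of 2.23. Some sit at a level of their own, such as the seed maturation gene AT5G44310, at 2.89 on both Col-0 dark N-rich arrays and on all Col-0 light arrays. A difference or fold against either level is a lower bound. In shoots, fewer cells that express a gene and less RNA per cell cannot be told apart. WRKY1 itself lay between 2.23 and 3.26 on the 21 SALK_070989 arrays and between 6.57 and 7.84 on the 19 Col-0 arrays. In the steady experiment its group mean exceeded 4 in Col-0 and SALK_136009, but not in SALK_016954 or SALK_070989. SALK_136009 thus kept WRKY1 signal on this probe set. The labels do not place the WRKY1 probe set relative to the insertions, so these levels do not show how much of the gene is lost. Array medians ranged from 4.29 to 4.68.

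**Figure D1:**
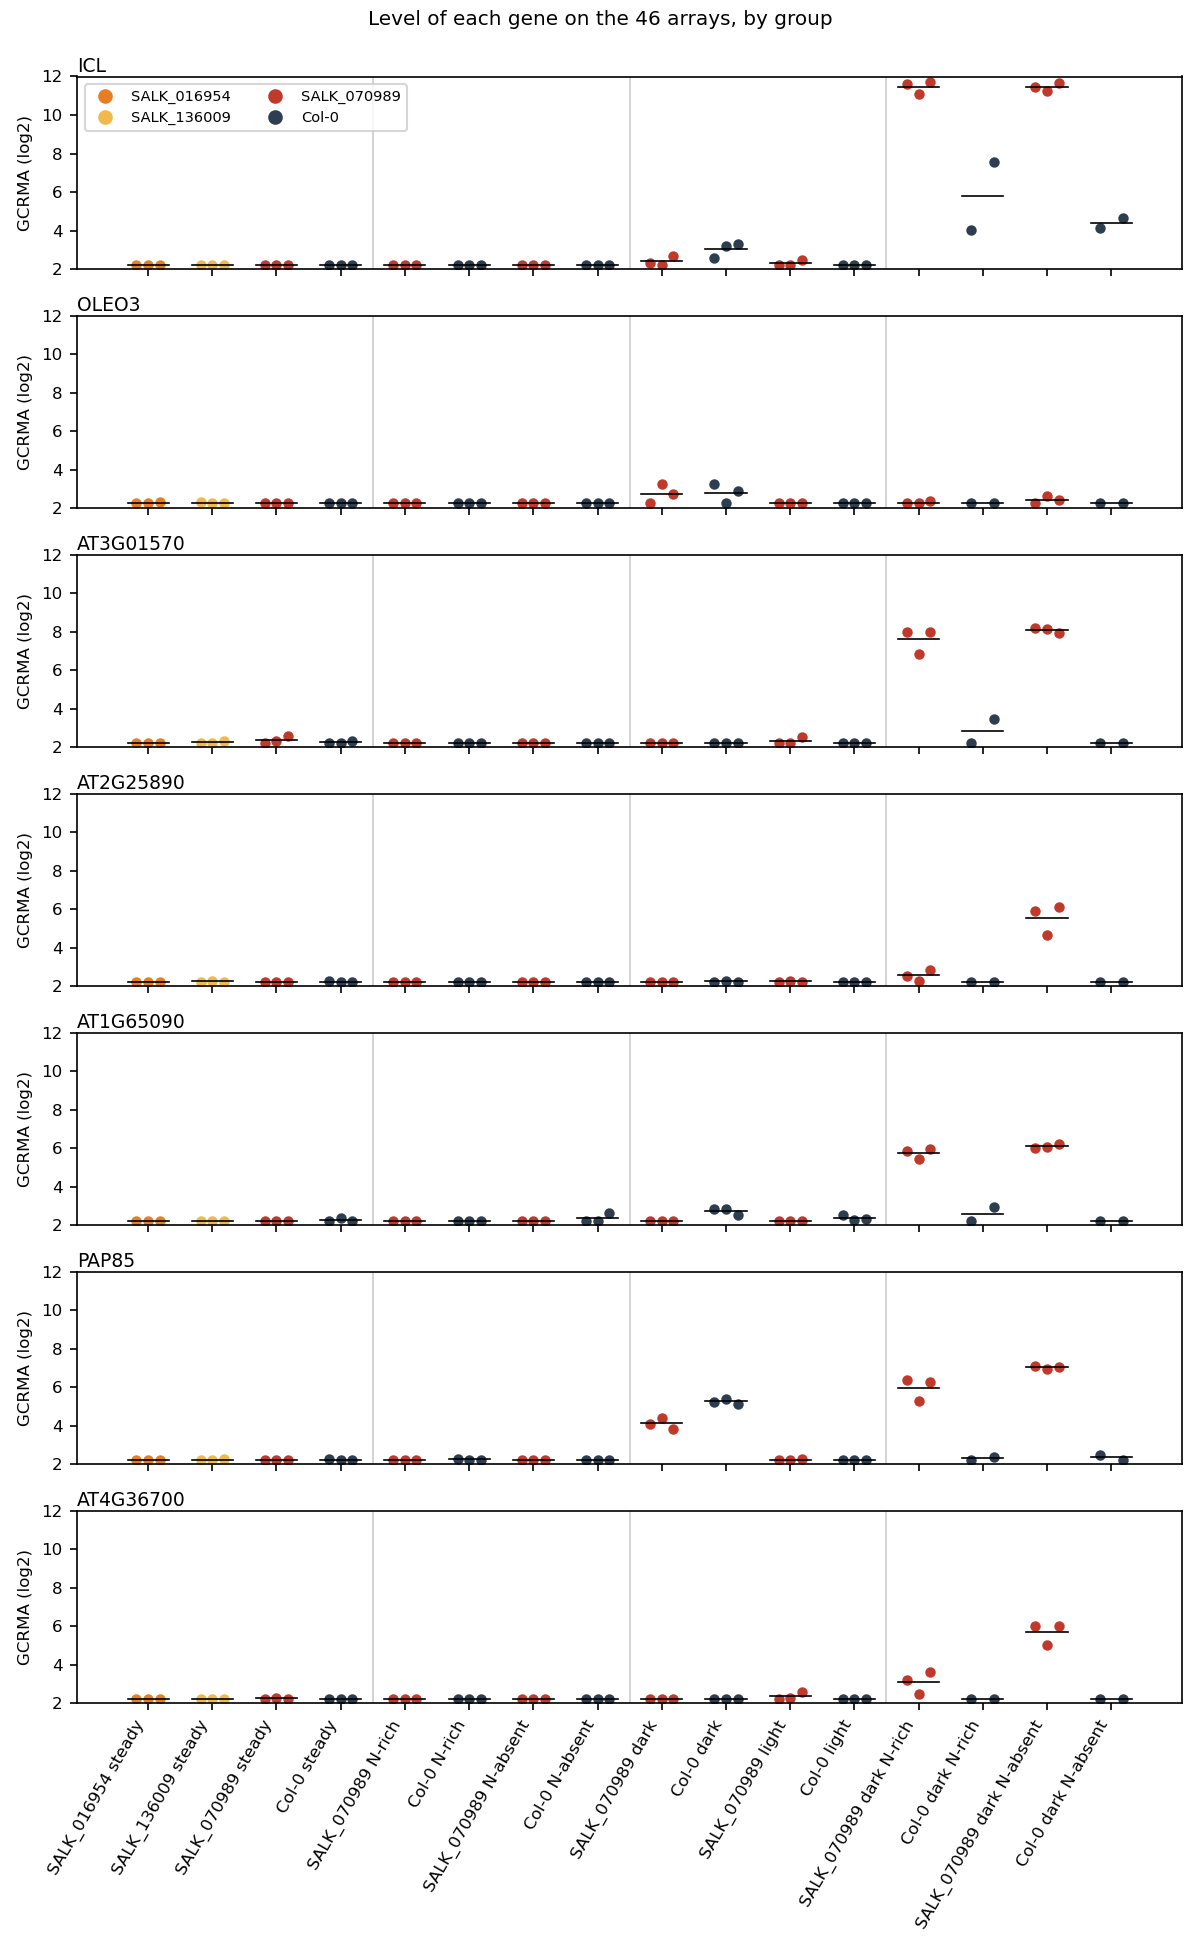
GCRMA log2 level (vertical axis) of each of the 7 genes on every array, by group (horizontal axis), with points for arrays, a line for the group mean and colours for genotype. ICL, AT3G01570, AT1G65090 and PAP85 were high on all 6 SALK_070989 arrays of the combined experiment, while in the 30 light-grown arrays every gene stayed at or below 2.63.

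The 7 genes were at or near the lowest value in light, whichever genotype or nitrogen supply was examined. Over the 30 light-grown arrays, the highest level was 2.63, for AT1G65090 on Col-0 N-absent replicate 3. ICL exceeded the lowest value by more than 0.01 on 1 of these 30 arrays, and AT3G01570 on 5. The signal lay in the 16 dark arrays, and mainly in SALK_070989 kept dark with or without nitrogen.

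ICL, the glyoxylate cycle enzyme that splits isocitrate, was high on all 6 SALK_070989 arrays of the combined experiment. It read 11.63, 11.09 and 11.72 in SALK_070989 dark N-rich, against 4.04 and 7.56 in Col-0 dark N-rich. In SALK_070989 dark N-absent it read 11.44, 11.24 and 11.68, against 4.15 and 4.63 in Col-0 dark N-absent. The genotypes did not overlap in either condition, and the Col-0 dark N-rich arrays were far apart. The difference between SALK_070989 and Col-0 was 5.68 ± 0.42 (SE) with nitrogen, or 51.1-fold, and 7.06 ± 0.42 without nitrogen, or 134-fold. This SE pools the spread of all 16 groups, and in most light-grown groups ICL did not vary. In Col-0 dark N-rich alone the SD was 2.49 (n = 2), so the SE understates the spread there. The value with nitrogen depended on the Col-0 array taken: it was 7.44 without Col-0 dark N-rich replicate 2 and 3.91 without replicate 1.

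Ordered by level, ICL averaged 11.48 ± 0.34 (SD, n = 3) in SALK_070989 dark N-rich and 11.45 ± 0.22 (SD, n = 3) in SALK_070989 dark N-absent, and the arrays of these groups overlapped. Col-0 dark N-rich and Col-0 dark N-absent came next, also overlapping. Foil-wrapped plants of the light experiment were lower, with ICL at 2.30, 2.23 and 2.68 in SALK_070989 dark, against 2.56, 3.21 and 3.29 in Col-0 dark. Those groups overlapped, and all groups grown in light had ICL at or below 2.48.

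The oleosins coat the oil body and keep droplets apart, and the 3 oleosin-type genes did not share a pattern. AT3G01570 read 8.00, 6.85 and 7.97 in SALK_070989 dark N-rich, against 2.23 and 3.43 in Col-0 dark N-rich. In SALK_070989 dark N-absent it read 8.20, 8.14 and 7.93, against the lowest value of 2.23 on both Col-0 dark N-absent arrays. It was thus high on all 6 SALK_070989 arrays of the experiment, by 4.78 ± 0.21 (SE) with nitrogen and by 5.86 ± 0.21 without nitrogen, at least 58.0-fold. It was at the lowest value on all 6 foil-wrapped arrays of the light experiment.

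AT2G25890, another oleosin gene, was well above the lowest value in 1 group, SALK_070989 dark N-absent. It read 2.53, 2.27 and 2.85 in SALK_070989 dark N-rich, while both Col-0 dark N-rich arrays were at the lowest value. In SALK_070989 dark N-absent it read 5.91, 4.64 and 6.10, against the lowest value on both Col-0 dark N-absent arrays, a difference of 3.32 ± 0.19 (SE), at least 9.96-fold. Outside SALK_070989 in the combined experiment, its highest level over 40 arrays was 2.27.

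OLEO3 differed from the rest of the set. In SALK_070989 dark N-rich it read 2.24, 2.25 and 2.35, against 2.24 on both Col-0 dark N-rich arrays. It read 2.24, 2.62 and 2.43 in SALK_070989 dark N-absent, against 2.24 on both Col-0 dark N-absent arrays, a difference of 0.19 ± 0.17 (SE). Its highest levels were in foil-wrapped plants, with 2.24, 3.23 and 2.74 in SALK_070989 dark and 3.25, 2.24 and 2.86 in Col-0 dark. These genotypes overlapped, and OLEO3 was the only gene of the set whose group means stayed below 4, so it did not pass the filter on low values. OLEO3 therefore did not share the pattern of the other 6 genes.

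AT1G65090, which encodes a seed lipid droplet protein, was also high on all 6 SALK_070989 arrays of the combined experiment. It read 5.86, 5.45 and 5.96 in SALK_070989 dark N-rich, against 2.23 and 2.95 in Col-0 dark N-rich. In SALK_070989 dark N-absent it read 5.98, 6.07 and 6.23, against the lowest value on both Col-0 dark N-absent arrays. The genotypes did not overlap, with differences of 3.17 ± 0.14 (SE) with nitrogen and 3.86 ± 0.14 without nitrogen, at least 14.6-fold. In foil-wrapped plants the order was the other way: SALK_070989 dark was at the lowest value on 3 of 3 arrays, against 2.81, 2.84 and 2.52 in Col-0 dark.

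PAP85 encodes a vicilin-like storage protein of the cupin family, and it was well above the lowest value in both dark experiments. It read 6.37, 5.25 and 6.28 in SALK_070989 dark N-rich, against 2.23 and 2.35 in Col-0 dark N-rich. In SALK_070989 dark N-absent it read 7.10, 6.96 and 7.05, against 2.46 and 2.23 in Col-0 dark N-absent. The genotypes did not overlap, with differences of 3.67 ± 0.17 (SE) with nitrogen, at least 12.8-fold, and 4.69 ± 0.17 without nitrogen, at least 25.8-fold. In each condition 1 of the 2 Col-0 arrays was at the lowest value. In the light experiment PAP85 read 4.09, 4.41 and 3.81 in SALK_070989 dark, against 5.25, 5.40 and 5.11 in Col-0 dark. There the genotypes again did not overlap, but SALK_070989 was lower, by 1.15 ± 0.15 on the log2 scale. Between dark and light, PAP85 differed by 1.87 ± 0.15, at least 3.66-fold, in SALK_070989 and by 3.02 ± 0.15, at least 8.11-fold, in Col-0.

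AT4G36700, a cupin-family gene, resembled AT2G25890. It read 3.19, 2.47 and 3.60 in SALK_070989 dark N-rich, with both Col-0 dark N-rich arrays at the lowest value, a difference of 0.86 ± 0.19 (SE). In SALK_070989 dark N-absent it read 6.01, 5.02 and 6.02, against the lowest value on both Col-0 dark N-absent arrays. That difference was 3.45 ± 0.19, at least 11.0-fold. It was at the lowest value on all 6 foil-wrapped arrays.

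**Figure D2:**
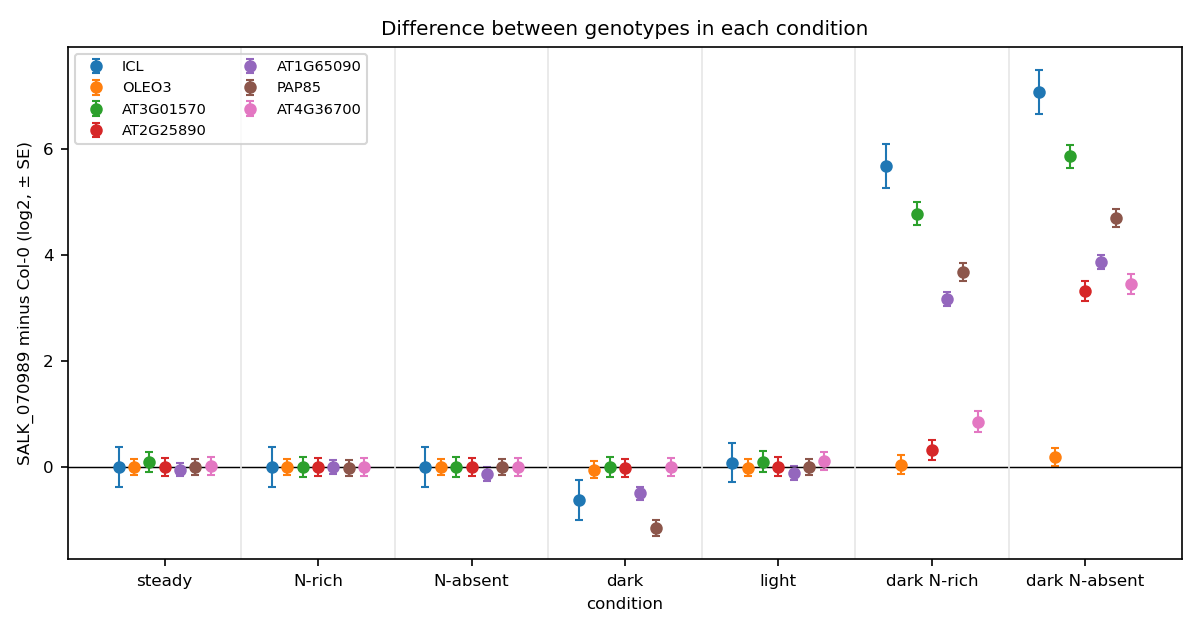
Difference between SALK_070989 and Col-0 in log2 units (vertical axis, ± SE of the fit) for each of the 7 genes in each of 7 conditions (horizontal axis). The combined conditions hold differences up to 7.06, whereas PAP85 in the dark condition is at -1.15 and all values in light lie near 0.

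The mean difference of the 7 genes between SALK_070989 and Col-0 was 2.65 in dark N-rich and 4.06 in dark N-absent. Their median difference was 3.17 in dark N-rich and 3.86 in dark N-absent, beside medians over all 14288 kept probe sets of -0.0133 in dark N-rich and -0.004 in dark N-absent. Of the 6 genes that passed the filter, 5 were past the threshold of limma's adjusted p of 0.05 in dark N-rich, where 5.19% of all kept probe sets were, and 6 in dark N-absent, where 20.1% were. In the dark condition 2 of the 6 were past it, both lower in SALK_070989 (2.6% of kept probe sets). Nothing is read from these counts, since the genes were selected with the contrasts known and 4 of the 6 passed the filter only through SALK_070989 groups of the combined experiment. The number past the threshold was 0 in each of the 6 comparisons of an insertion line with Col-0 in light. In steady plants the share of kept probe sets past it was 12.5% for SALK_070989, 8.48% for SALK_136009 and 3.28% for SALK_016954. For SALK_070989 it was 8.02% in N-absent, 2.75% in N-rich and 5.61% in light.

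Levels of the annotated shoot and root markers are given beside these differences. Of 9 seed markers fixed for the check, 0 had an annotated probe set, so the seed label could be checked only through the genes themselves. Of 8 root markers 1 was annotated, EXPA7, a root hair expansin. It read 3.29, 2.85 and 3.07 in SALK_070989 dark N-rich and 2.44, 3.17 and 2.61 in SALK_070989 dark N-absent, and was at the lowest value on the 4 Col-0 arrays of the combined experiment. On the arrays of the steady, nitrogen and light experiments it was 2.42 or lower, and its part in the result was not tested. The shoot markers RCA and PRK, 2 of 8 annotated, encode Rubisco activase and phosphoribulokinase. In dark N-rich the genotypes overlapped, with RCA between 11.2 and 11.6 in SALK_070989 and between 11.4 and 11.7 in Col-0, and PRK between 9.15 and 9.42 in SALK_070989 and between 9.13 and 9.36 in Col-0. In dark N-absent both were higher in SALK_070989 without overlap, RCA between 11.4 and 11.6 in SALK_070989 and between 10.9 and 11.2 in Col-0, and PRK between 9.53 and 9.79 in SALK_070989 and between 8.56 and 8.98 in Col-0. Both were well above the lowest value in both genotypes, and their part in the result was not tested. The 3′ to 5′ difference of the GAPDH control probe sets, a measure of RNA quality, was 2.04 to 2.33 on the 6 SALK_070989 arrays and 2.11 to 2.91 on the 4 Col-0 arrays. The highest of these was on Col-0 dark N-absent replicate 1, and without that array the mean difference of the 7 genes in dark N-absent was 4.04.

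Nitrogen in the dark divided the set in SALK_070989. Between dark N-rich and dark N-absent, AT2G25890 was lower by 2.99 ± 0.17 (SE) on the log2 scale, AT4G36700 by 2.60 ± 0.17 and PAP85 by 1.07 ± 0.15, and the arrays of the conditions did not overlap for any of them. AT1G65090 was lower by 0.34 ± 0.12, also without overlap. AT3G01570 differed by -0.48 ± 0.19 with overlap. ICL differed by 0.02 ± 0.37 and OLEO3 by -0.14 ± 0.15, both with overlapping arrays. AT2G25890 (2.27 to 2.85) and AT4G36700 (2.47 to 3.60) were low in dark N-rich. Both passed the filter only through SALK_070989 dark N-absent. The difference with nitrogen thus varied widely among the cupin and oleosin genes, with OLEO3 not clearly lower, and the level of ICL was about the same.

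In Col-0 the same comparison gave 0.60 ± 0.23 (SE) for AT3G01570, 0.36 ± 0.15 for AT1G65090 and 1.41 ± 0.46 for ICL, and differences within 0.06 of 0 for the others. All 3 values came from Col-0 dark N-rich replicate 2: without that array ICL was -0.35 and the other differences were 0, whereas without replicate 1 ICL was 3.17. Of the 6 genes that passed the filter, 4 were past the threshold in SALK_070989, all lower (28.6% of kept probe sets), and 1 in Col-0 (20.1%). For the difference of the nitrogen response between genotypes in the dark, 5 of 6 were past it, all lower (9.54%). For AT2G25890 and AT4G36700 Col-0 was at the lowest value in both conditions, and for PAP85 near it, so no Col-0 response could be seen in them. Nothing is read from these counts, since the genes were selected with the contrasts known. The genotype comparisons and nitrogen comparisons share arrays, so they are not separate pieces of evidence. In light, where the 7 genes were at or near the lowest value, 0 were past it in SALK_070989 (18.8% of kept probe sets), in Col-0 (25.8%) and in the difference between them (0.182%).

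**Figure D3:**
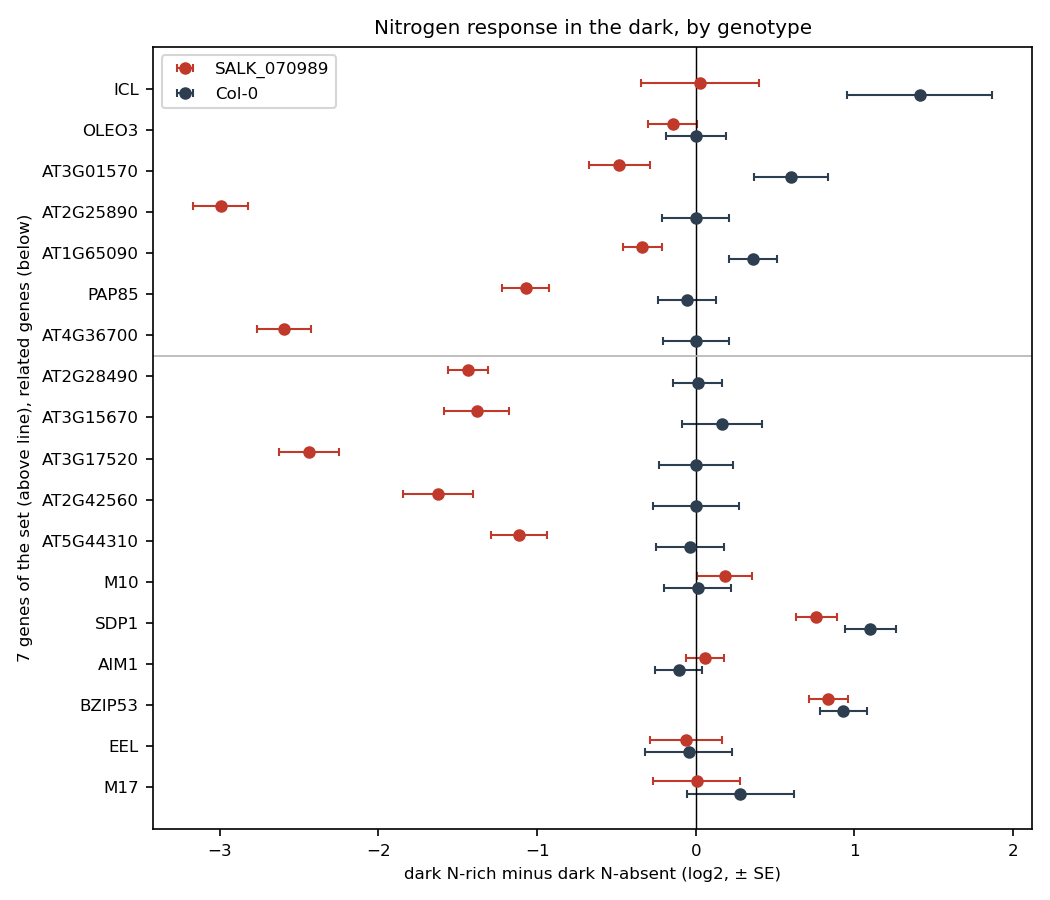
Dark N-rich minus dark N-absent in log2 units (horizontal axis, ± SE of the fit) for the 7 genes above the line and the 11 tested related genes below it (vertical axis), with SALK_070989 and Col-0 in separate colours. In SALK_070989, AT2G25890 at -2.99 is the lowest of the 7 genes and AT3G17520 at -2.44 the lowest of the related genes, and in Col-0 both are at 0.

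Between dark and light, 1 of the 6 filtered genes was past the threshold in SALK_070989 (74.3% of kept probe sets) and 2 in Col-0 (76.3%), all higher. Those were PAP85 in both genotypes and AT1G65090 in Col-0, where it was higher by 0.38 ± 0.12 (SE). ICL was 0.79 ± 0.37 higher in Col-0 dark than in Col-0 light, and 0.09 ± 0.37 higher in SALK_070989 dark than in SALK_070989 light. For the difference of the dark response between genotypes, 1 of 6 was past the threshold, PAP85 at -1.15 ± 0.21, where 2.22% of kept probe sets were.

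Genes of the same processes were then examined from 6 lists of 76 genes on oil bodies, storage proteins, fat breakdown and the glyoxylate cycle, seed regulators, oil synthesis and other seed maturation. An annotated probe set was found for 14 of them, and 11 passed the filter. Of these, 5 passed only through SALK_070989 groups of the combined experiment: AT3G15670, AT3G17520, AT5G44310 and AT2G28490 through both groups, and AT2G42560 through dark N-absent alone. Genes kept in that way had to differ, and the lists were chosen with earlier results of these data known. The adjusted p-values of these genes and the counts of calls in the combined experiment therefore only describe them. They support nothing about the lists. The lists of oil body and oil synthesis genes left 0 genes to test. Malate synthase, the other enzyme of the glyoxylate cycle, the 2S albumins and the oleosin OLEO1 are not analysed here.

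Of the 6 tested genes of other seed maturation, 5 were higher in SALK_070989 in both combined conditions, where 20.1% (dark N-absent) and 5.19% (dark N-rich) of kept probe sets were called. They are late embryogenesis abundant (LEA) genes or carry an LEA domain, whose proteins are known to accumulate in drying seeds. Among them M10 averaged only 2.99 in SALK_070989 dark N-absent and 3.17 in SALK_070989 dark N-rich. Its means were higher in foil-wrapped plants, at 4.84 in SALK_070989 dark and 5.37 in Col-0 dark. The sixth, M17, was not called, at means of 2.25 in SALK_070989 and 2.60 in Col-0 in dark N-rich, and of 2.25 in SALK_070989 and 2.32 in Col-0 in dark N-absent. AT3G15670, an LEA gene, read 9.72, 9.25 and 10.29 in SALK_070989 dark N-absent, against the lowest value on both Col-0 dark N-absent arrays. Its difference was 7.52 ± 0.23 (SE), at least 184-fold (limma adjusted p = 2.4e-24). AT3G17520, also an LEA gene, read 8.92, 8.50 and 9.02 in SALK_070989 dark N-absent, with Col-0 at the lowest value, a difference of 6.58 ± 0.21, at least 95.9-fold (adjusted p = 1.3e-23). Both were kept by the filter only through SALK_070989 groups of the combined experiment, so these p-values are descriptive.

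Of the 11 related genes, 6 were higher and 0 lower in SALK_070989 in dark N-absent, where 20.1% of all kept probe sets were called. All of these 6 except M10 were kept by the filter only through SALK_070989 groups of the combined experiment. The count and the adjusted p-values are therefore descriptive. The count was 5 of the 6 other seed maturation genes and 1 of 1 tested storage protein gene, with 0 of 2 fat breakdown genes and 0 of 2 regulators. The storage-type cupin gene AT2G28490 read 5.38, 5.09 and 5.97 in SALK_070989 dark N-absent, against the lowest value in Col-0 dark N-absent, a difference of 3.25 ± 0.14 (adjusted p = 5.5e-20). AT5G44310, an LEA gene, was higher by at least 4.12 ± 0.20 (adjusted p = 1.1e-18), AT2G42560, which has an LEA domain, by 2.80 ± 0.25 (adjusted p = 5.5e-11), and M10 by 0.76 ± 0.19 (adjusted p = 0.0045).

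In dark N-rich the count was again 6 of 11 higher and 0 lower in SALK_070989, where 5.19% of all kept probe sets were called. The same genes were called, and all except M10 were kept only through SALK_070989 groups of the combined experiment. This count and its adjusted p-values are descriptive as well. AT3G15670 was higher by 5.98 ± 0.23 (adjusted p = 1.1e-20) and AT3G17520 by 4.15 ± 0.21 (adjusted p = 3.1e-17). AT5G44310 was higher by at least 3.05 ± 0.20 (adjusted p = 2e-14) and AT2G28490 by 1.80 ± 0.14 (adjusted p = 3e-12). M10 was higher by 0.93 ± 0.19 (adjusted p = 0.0021) and AT2G42560 by 1.17 ± 0.25 (adjusted p = 0.0024). With only the 2 groups compared in the fit, the calls of AT2G28490, AT2G42560 and M10 were lost (adjusted p = 0.054, 0.083 and 0.22). The other tested genes were not past the threshold: SDP1, the lipase that starts oil breakdown, differed by -0.06 ± 0.15 (adjusted p = 0.89), and the seed regulator BZIP53 by -0.15 ± 0.14 (adjusted p = 0.61).

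**Figure D4:**
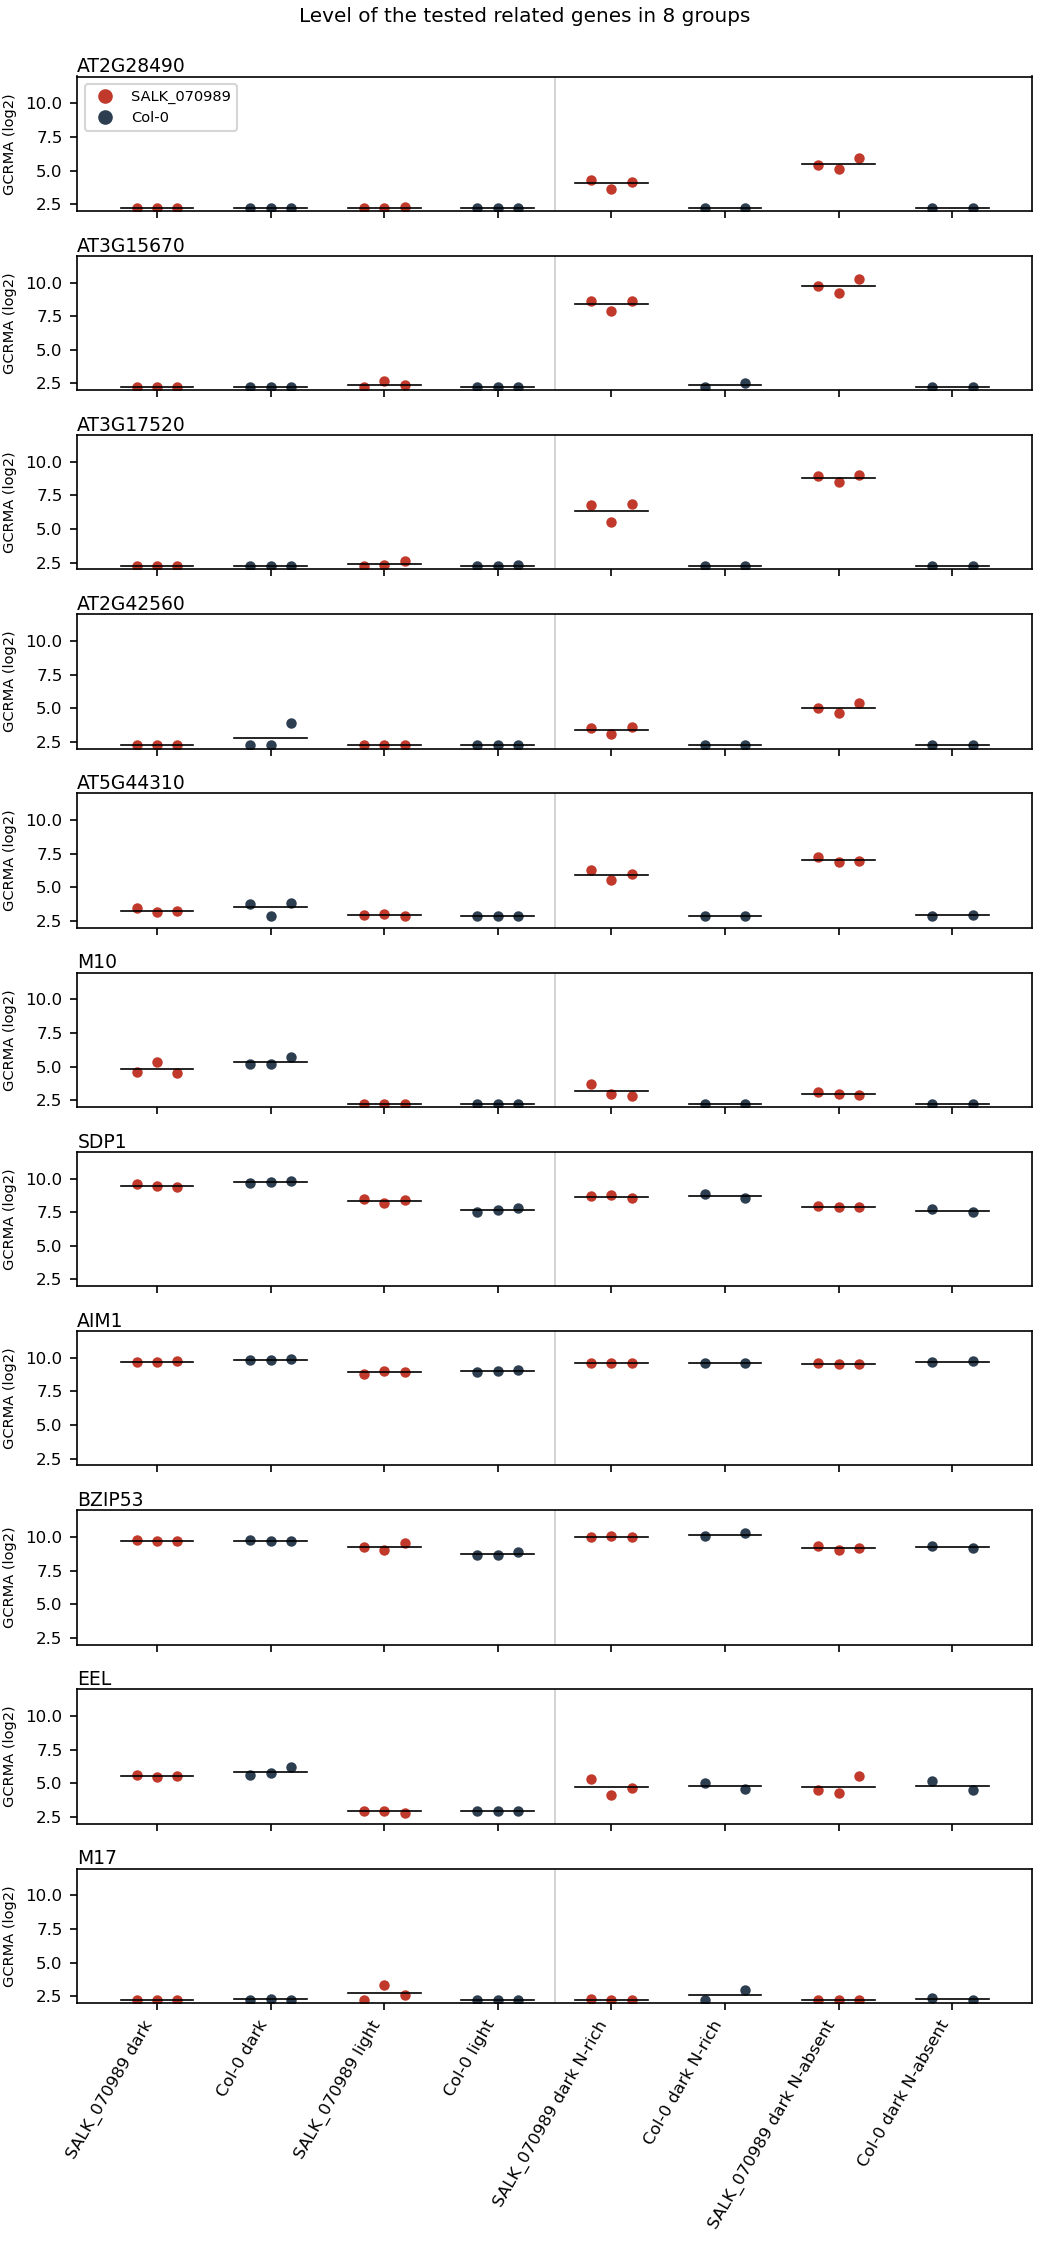
GCRMA log2 level (vertical axis) of each of the 11 tested related genes on every array of 8 groups of the light and combined experiments (horizontal axis), with points for arrays and a line for the group mean. AT3G15670 and AT3G17520 are between 5.49 and 10.29 on the 6 SALK_070989 combined arrays, while SDP1, AIM1 and BZIP53 are above 7 in all 8 groups.

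In SALK_070989 in the dark, 4 LEA genes and the cupin gene AT2G28490 were lower with nitrogen. All 5 were kept by the filter only through SALK_070989 groups of the combined experiment, so their adjusted p-values are descriptive. AT2G42560 passed through dark N-absent alone, the condition in which it was higher. In SALK_070989, 2 of 11 related genes were higher and 5 lower in dark N-rich than in dark N-absent, where 28.6% of all kept probe sets were called. AT3G17520 fell by 2.44 ± 0.19 (SE, adjusted p = 1.9e-12), AT2G28490 by 1.43 ± 0.12 (adjusted p = 2.8e-11), AT2G42560 by 1.62 ± 0.22 (adjusted p = 5e-07), AT3G15670 by 1.38 ± 0.20 (adjusted p = 2.5e-06) and AT5G44310 by 1.11 ± 0.18 (adjusted p = 6.7e-06). BZIP53 rose by 0.84 ± 0.12 (adjusted p = 1.8e-06) and SDP1 by 0.76 ± 0.13 (adjusted p = 3e-05).

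In Col-0, where 20.1% of all kept probe sets were called, 2 of 11 were higher and 0 lower, SDP1 by 1.10 ± 0.16 (adjusted p = 2.9e-06) and BZIP53 by 0.93 ± 0.15 (adjusted p = 1.3e-05). Both calls were lost with only the 2 groups compared in the fit (adjusted p = 0.058 and 0.052). The nitrogen response in the dark differed between genotypes for 5 of 11, all lower in SALK_070989 and all kept by the filter only through its combined groups (9.54% of all kept probe sets were called): AT3G17520 by -2.44 ± 0.30 (adjusted p = 9e-07), AT2G28490 by -1.45 ± 0.20 (adjusted p = 6e-06), AT3G15670 by -1.54 ± 0.32 (adjusted p = 0.0017), AT2G42560 by -1.63 ± 0.35 (adjusted p = 0.0022) and AT5G44310 by -1.08 ± 0.28 (adjusted p = 0.010, and 0.051 without Col-0 dark N-absent replicate 1). In Col-0 these genes lay at or near their lowest value in both conditions, so no nitrogen response could be seen in them. With only the groups compared, the interactions of AT2G28490, AT5G44310 and AT3G15670 had adjusted p = 0.07, 0.073 and 0.089.

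In the light experiment, in SALK_070989, 5 of 11 were higher in dark than in light and 0 lower, and in Col-0 7 and 0, beside shares of all kept probe sets of 74.3% and 76.3%. The LEA gene M10 rose by at least 2.60 ± 0.17 in SALK_070989 (adjusted p = 6.2e-16) and by at least 3.13 ± 0.17 in Col-0 (adjusted p = 2.6e-18). The bZIP factor EEL is known to bind LEA gene promoters. EEL rose by at least 2.65 ± 0.22 in SALK_070989 (adjusted p = 5.5e-13) and by at least 2.91 ± 0.22 in Col-0 (adjusted p = 3.7e-14). In light EEL read 2.97 on every Col-0 array and 2.81 to 2.97 in SALK_070989, and M10 read 2.23 to 2.24 in both. These levels were taken as without signal, so the rises are lower bounds. SDP1 rose by 1.11 ± 0.13 in SALK_070989 (adjusted p = 1.9e-09) and by 2.07 ± 0.13 in Col-0 (adjusted p = 1.6e-16), and this dark response differed between genotypes by -0.96 ± 0.19 (adjusted p = 0.0029).

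AIM1, a beta-oxidation enzyme, rose in the dark by 0.79 ± 0.12 in SALK_070989 (adjusted p = 3.8e-07) and by 0.83 ± 0.12 in Col-0 (adjusted p = 1.3e-07). BZIP53 rose by 0.45 ± 0.12 in SALK_070989 (adjusted p = 0.0014) and by 1.01 ± 0.12 in Col-0 (adjusted p = 2.6e-09). AT5G44310 rose by at least 0.63 ± 0.18 in Col-0 (adjusted p = 0.0016), and with only the groups compared its adjusted p was 0.069. AT2G42560 rose by 0.55 ± 0.22 in Col-0 (adjusted p = 0.024) on the strength of Col-0 dark replicate 3 alone, since the difference was -0.0086 without it. The LEA genes AT3G15670 and AT3G17520 were at the lowest value on all 6 foil-wrapped arrays.

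In light, 3 related genes differed between at least 1 insertion line and Col-0, SDP1, M17 and BZIP53, and 0 of these were called between genotypes in the combined experiment. The shares of all kept probe sets called in steady plants were 12.5% for SALK_070989, 8.48% for SALK_136009 and 3.28% for SALK_016954. In the light condition the share was 5.61% for SALK_070989. In steady plants SDP1 was above its Col-0 level by 0.88 ± 0.13 in SALK_070989 (adjusted p = 8.2e-06), by 0.52 ± 0.13 in SALK_136009 (adjusted p = 0.0092) and by 0.48 ± 0.13 in SALK_016954 (adjusted p = 0.033). M17, an LEA-type gene, read 2.25, 2.25 and 2.23 in SALK_070989, 3.53, 2.25 and 3.02 in SALK_136009 and 2.68, 2.25 and 2.60 in SALK_016954, against 5.39, 3.41 and 4.17 in Col-0. It fell by 2.08 ± 0.28 in SALK_070989 (adjusted p = 1e-06), by 1.39 ± 0.28 in SALK_136009 (adjusted p = 0.00079) and by 1.81 ± 0.28 in SALK_016954 (adjusted p = 5.2e-05). SALK_136009 overlapped with Col-0 for M17, which passed the filter only through Col-0 steady and so had to be higher there than elsewhere. For SALK_016954, 1 of the 2 calls was lost when Col-0 replicate 1 or 2 or SALK_016954 replicate 2 or 3 was left out. With only the groups compared in the fit, 0 related genes were called for SALK_016954 and 0 for SALK_136009, so that the calls in these lines rest on the spread shared over all groups.

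BZIP53 was higher in the steady experiment by 0.55 ± 0.12 in SALK_070989 (adjusted p = 0.0016) and by 0.48 ± 0.12 in SALK_136009 (adjusted p = 0.0091), a call that was lost in SALK_136009 with only the groups compared. In the light condition SDP1 was higher in SALK_070989 by 0.69 ± 0.13 (adjusted p = 0.00077) and BZIP53 by 0.54 ± 0.12 (adjusted p = 0.0039), and 1 of these calls was lost without SALK_070989 light replicate 3. Of the 11 related genes, 0 were called between SALK_070989 and Col-0 by limma's adjusted p in N-absent, in N-rich or in dark. The shares of all kept probe sets called were 8.02% in N-absent, 2.75% in N-rich and 2.6% in dark. In N-absent 1 was called without Col-0 replicate 2 or SALK_070989 replicate 3. In dark, AT2G42560 was called without Col-0 dark replicate 2 (adjusted p = 0.044) and M10 without SALK_070989 dark replicate 2 (adjusted p = 0.0067), both lower in SALK_070989. N-rich against N-absent in light moved 1 of 11 in SALK_070989 (18.8% of all kept probe sets), M10 by 0.59 ± 0.17 (adjusted p = 0.012). This call was lost without SALK_070989 N-rich replicate 1. In Col-0 the same comparison moved 0 of 11 (25.8% of all kept probe sets), and 1 without Col-0 N-rich replicate 3 or Col-0 N-absent replicate 2.

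Of the genes with an annotated probe set that failed the filter, AT1G03890, a cruciferin-type gene, was at the lowest value on all 46 arrays, and the oleosin gene AT3G18570 did not exceed 2.41. The cupin gene AT2G18540 read 4.57, 3.84 and 3.32 in SALK_070989 dark N-absent, against 2.53 on both Col-0 dark N-absent arrays.

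The 8 genes whose levels were most like the mean of the 7 genes, each centred, were AT1G04560, AT3G54940, AT5G66780, AT2G15010, LEA18, AT5G44310, AT4G21020 and AT5G07330, out of 7662 named and kept probe sets. Their Pearson correlations over the 46 arrays were 0.978 to 0.988, with rank correlations (Spearman) of 0.446 to 0.668. The arrays fell into separate clusters, the 6 SALK_070989 combined arrays and the other 40. Within the 6 arrays the correlations were 0.915 to 0.994, and within the other 40 they were -0.111 to 0.59. Without the 2 arrays of highest member mean they were 0.966 to 0.981. These arrays share genotype, experiment and normalization, and the values describe these libraries only.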

How the data were processed

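Total RNA from shoots was labelled for 3′ expression arrays. Per the submitters' processing notes, the authors deposited GCRMA values per probe set, with no version named. They span 2.23 to 14.63 and were taken as log2, and 26.4% of the deposited log2 values lay within 0.01 of the lowest. Scan dates were not used here. In the platform's annotation 13513 probe sets have a single gene, 503 have several and 8794 are missing. Of the 13513, 13436 matched a locus of the TAIR10.1 gene table. No coordinates or sequences are given, and the promoter motif search was not run.

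Of 22746 probe sets that are not controls, 14288 whose highest group mean exceeded 4 were kept. With R 4.3.3 and limma 3.58.1, 16 group means were estimated from the 46 arrays together, giving 30 residual and, through eBayes, 4.97 prior degrees of freedom. In each of 18 comparisons p was adjusted over these probe sets (Benjamini-Hochberg), and 0.05 was the limit for a call. A ± gives the standard error unless marked SD. Standard errors and p-values use a spread pooled over all groups. Genes at the lowest value in many groups hardly vary there. For them the pooled spread can understate that of groups with signal, so their standard errors and p-values can be too small. The number of arrays limits the precision. The fit was also run on simulated data with normal noise, equal spread in all groups and no lowest level. That run therefore says nothing about genes at the lowest value in many groups.

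The 7 genes and the 6 lists of related genes were chosen with earlier results of these data known. Named are the 7 genes, up to 4 genes of each list per comparison with the smallest adjusted p, and the 8 most similar genes. M10 and AT2G42560 are also named where 4 genes of their list had a smaller adjusted p, and genes that missed the threshold or the filter were named after their values were seen.

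Groups share replicate numbers. Deviations of same-numbered arrays from their group means correlated at -0.271 to 0.485 over 42 pairs. All pairs exceeded 0.1 in 2 of 15 group pairs. These were SALK_070989 against Col-0 in N-absent (0.136 to 0.485) and Col-0 N-rich against N-absent (0.126 to 0.155). In the same experiment SALK_070989 N-rich against N-absent gave -0.053 to 0.265. Whether the numbers pair the arrays was not tested. No arrays were identical. The settings varied were the filter (none, or 6, which keeps 10884 probe sets), quantile normalization on top of GCRMA, the trend and robust options of eBayes, a replicate block, fits restricted to the arrays being compared, and omission of single arrays.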

Additional observations from a re-analysis of the deposited data

Results flagged for a closer look

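Limma's interaction term of nitrogen and genotype in the dark was past the threshold for AT3G17520 (-2.4377), AT2G42560 (-1.6255), AT3G15670 (-1.5442), AT2G28490 (-1.4463) and AT5G44310 (-1.0753). Each is the response of SALK_070989 minus that of Col-0 in log2 units. In Col-0 these genes lay at or near their lowest value in both conditions, so no Col-0 response could be seen. All were kept by the filter only through SALK_070989 groups of the combined experiment. With only the groups compared, the calls of AT3G15670, AT2G28490 and AT5G44310 were lost. The interaction term of dark and genotype was past the threshold for SDP1 (-0.9617).

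For other genes every SALK_070989 array lay above every Col-0 array in 1 condition and below in another, and these differences between conditions were not tested. Each value here is the difference between SALK_070989 and Col-0 in the condition named first minus that in the condition named second. For PAP85 it was 5.8367 for dark N-absent and dark, and 4.8188 for dark N-rich and dark. For AT1G65090 it was 4.3577 for dark N-absent and dark, 3.6603 for dark N-rich and dark, 3.9769 for dark N-absent and light, and 3.2795 for dark N-rich and light. In light AT1G65090 was at the lowest value in SALK_070989 and read 2.50, 2.24 and 2.29 in Col-0, a difference of -0.11 ± 0.12 (SE). Its order in light thus rests on values at or near the lowest. For AT2G18540 it was 1.6033 for dark N-absent and light. In light AT2G18540 read 2.53 to 2.65 in SALK_070989 and 2.67 to 2.93 in Col-0, also low levels.

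SDP1 gave 1.1622 for steady and N-rich, 1.1583 for steady and dark, 0.9655 for light and N-rich, 0.5608 for dark N-absent and N-rich, and 0.5569 for dark N-absent and dark. BZIP53 gave 0.7037 for steady and dark N-rich and 0.6956 for light and dark N-rich, and EEL gave 0.5861 for steady and dark. Dark and combined arrays come from different experiments.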

How the results depend on the processing

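The genotype differences of the 7 genes in the combined experiment kept their direction under every alternative run for them. With only the groups compared, changed probe sets numbered 20 for SALK_016954, 433 for SALK_136009 and 645 for SALK_070989 in steady, 0 in N-absent, 1 in N-rich, 12 in dark, 1251 in dark N-absent and 68 in dark N-rich. The nitrogen response in light gave 1326 in SALK_070989 and 1495 in Col-0, and in the dark 445 in Col-0. The interactions gave 0 for nitrogen, 490 for dark and 360 for nitrogen in the dark. Related genes called were then 0 for SALK_016954 and 0 for SALK_136009, 1 in light, 3 in dark N-rich, 0 for nitrogen in dark Col-0 and 2 for its interaction. With a filter at 6, which leaves fewer genes to test, related calls were 1 for SALK_016954, 1 in N-absent, 3 in dark N-absent, 3 in dark N-rich, 0 and 1 for nitrogen in light in SALK_070989 and Col-0, 3 and 4 for dark against light in SALK_070989 and Col-0, and 3 for the interaction of nitrogen in the dark. A further quantile normalization gave 1 related call in N-absent and 1 for nitrogen in light in Col-0, as did trend and robust eBayes. Without a filter, 648 probe sets were called in dark. The causes of these shifts were not tested.

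Leaving out each array in turn, changed probe sets ranged over 184 to 698 (SALK_016954), 636 to 1024 (SALK_136009), 508 to 1473 (N-absent), 150 to 550 (N-rich), 218 to 341 (dark), 436 to 668 (light), 1286 to 2675 (dark N-absent), 479 to 777 (dark N-rich), 1719 to 2437 (nitrogen in dark Col-0), and for the interactions 17 to 112 (nitrogen), 148 to 280 (dark) and 738 to 1539 (nitrogen in the dark). The lowest counts of dark N-absent, of nitrogen in dark Col-0 and of its interaction came without Col-0 dark N-absent replicate 1. Related calls ranged over 1 to 2 for SALK_016954, 0 to 1 in N-absent, 0 to 1 in dark, 1 to 2 in light, 0 to 1 for nitrogen in light in SALK_070989, 0 to 1 in Col-0, and 1 to 2 for the dark interaction. The mean difference of the 7 genes ranged over 2.248 to 3.0424 in dark N-rich, both ends from leaving out a Col-0 dark N-rich array, over -1.2292 to -0.8653 for nitrogen in dark SALK_070989, and over -0.0664 to 0.728 in dark Col-0. ICL for nitrogen in dark Col-0 ranged over -0.3526 to 3.174, and AT2G42560 between dark and light in Col-0 over -0.0086 to 0.8257. Where a Col-0 group was left with 1 array, that array was assumed to vary like the others.

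With the replicate block, 1144 probe sets changed between SALK_070989 and Col-0 in N-absent and 3650 between N-rich and N-absent in Col-0. In these comparisons all same-numbered arrays correlated above 0.1, and the block changed no related call. In Col-0 dark N-rich against dark N-absent, where same-numbered arrays correlated at -0.182, the block gave 2870 probe sets and 2 related genes, and the numbers crossed, an alternative chosen after seeing the data, gave 2947 and 2. Where Col-0 was at the lowest value a fold is only a lower bound, and the groups of 2 arrays limit the precision.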
